A study of Mus musculus with 16 samples.

Results

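Immunoglobulin variable (V) segments were examined in RNA from sections of the brachiocephalic artery. The members were the rows of the count table named Ighv, Igkv or Iglv with at least 20 counts summed over all 16 libraries, so they were chosen by a measured value, their summed count. Of 346 V rows among 55356 named rows, 90 had a count. The rule took 44 segments: 12 heavy chain segments (Ighv), 30 kappa light chain segments (Igkv) and 2 lambda light chain segments (Iglv). They held 3871 of the 4150 counts on all V rows, or 93.28%, and the 46 rows with 1 to 19 counts held the other 279. Just inside the threshold were Igkv9-120 with 20 counts and Igkv4-59 and Igkv5-45 with 21 each. Just outside were Igkv10-96 with 19 and Ighv1-36 and Ighv1-9 with 17 each.

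The brachiocephalic artery is a branch of the aortic arch where plaques form in mice with high cholesterol. All 16 mice were female and lacked Apoe, so there was no group with intact Apoe. Of them, 8 also lacked Mif, the gene of the cytokine macrophage migration inhibitory factor, and are written Apoe-/-Mif-/-. From the age of 6 weeks, mice of each genotype were fed a Western-type diet (0.2% cholesterol, 21.2% fat in total) for either 24 or 42 weeks, with 4 mice in each of the 4 groups and 1 library per mouse. Each library came from 3 to 4 pooled frozen sections of 5 µm, with 1 ng of RNA amplified by a Smart-seq2 protocol that has no molecular identifiers, so counts are of reads and intervals cover counting error only. In bulk sections, fewer B-lineage cells and less RNA per cell cannot be told apart. Libraries are numbered 1 to 4 within a group in accession order, and the numbers have no other meaning.

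Each developing B cell joins 1 V segment to a J segment (and, for the heavy chain, a D segment) by V(D)J recombination, and its descendants inherit that joint. The V segment encodes most of the chain's variable domain, and the constant region is joined to it by splicing. A sample with few B-lineage clones therefore shows few V segments, while a lymph node or spleen shows many. Plasma cells make far more immunoglobulin RNA per cell than resting B cells, so counts of a segment are not counts of cells. The mouse lambda locus has few V segments and kappa chains predominate in mouse antibodies.

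The final 90 bases of 8 segments are shown because the results turn on them. Iglv1, Igkv1-135 and Igkv6-20 were the segments found at 5 or more counts in the most libraries. Igkv1-110, Ighv1-30, Igkv19-93, Igkv2-113 and Ighv1-54 were each the most counted segment of 1 library with at least 50 counts on the members. Sequences are from GENCODE M21 transcripts on GRCm38, to which all 346 V symbols matched. They are given 5′ to 3′ and are germline sequence, not reads. Capitals mark a tyrosine codon (TAN with T or C at the end), then a codon of tyrosine, phenylalanine (TTN) or histidine (CAN) with the same choice of last base, then a cysteine codon (TGN, likewise). This is the conserved stretch that ends the last framework of the segment before the joint.
Iglv1: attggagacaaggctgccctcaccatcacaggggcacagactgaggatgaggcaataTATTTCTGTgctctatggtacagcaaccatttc
Igkv1-135: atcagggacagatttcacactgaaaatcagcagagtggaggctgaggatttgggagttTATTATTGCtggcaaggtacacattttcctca
Igkv6-20: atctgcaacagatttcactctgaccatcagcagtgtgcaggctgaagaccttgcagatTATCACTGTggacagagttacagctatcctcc
Igkv1-110: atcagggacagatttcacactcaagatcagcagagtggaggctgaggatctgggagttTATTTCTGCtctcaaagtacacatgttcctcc
Ighv1-30: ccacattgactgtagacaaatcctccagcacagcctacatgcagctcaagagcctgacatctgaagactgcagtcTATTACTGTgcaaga
Igkv19-93: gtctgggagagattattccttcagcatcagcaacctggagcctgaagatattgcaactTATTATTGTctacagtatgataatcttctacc
Igkv2-113: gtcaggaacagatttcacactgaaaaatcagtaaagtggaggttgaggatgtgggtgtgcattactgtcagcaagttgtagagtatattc
Ighv1-54: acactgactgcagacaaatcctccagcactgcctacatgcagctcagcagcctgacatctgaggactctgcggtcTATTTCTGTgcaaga
The motif was searched on the transcript strand, in any frame, in the last 90 bases of each V transcript. It was found in 211 of the 216 V rows annotated as genes (97.69%) and in 72 of the 129 annotated as pseudogenes (55.81%). Among members it was found in 37 of 37 genes and in 4 of 7 pseudogenes. Igkv2-113 is a pseudogene with no match, so its line has no capitals, and Ighv1-30 is a pseudogene with a match.

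The libraries held between 378066 and 8649518 counts, and 3 counts, the number that a count of 0 allows, corresponded to between 0.322 and 5.91 CPM (counts per 1000000, scaled by library total and TMM factor). Mif was at 21.7 to 297 CPM in the 8 Apoe-/- libraries and at 2.33 to 19.4 CPM in the 8 Apoe-/-Mif-/- libraries, with no overlap. Apoe was at 2.53 to 1086 CPM over the 16 libraries. No group had intact Apoe and the sources used here do not say which part was deleted, so these counts cannot check that label. The column names start with P7C for the 4 libraries of Apoe-/-Mif-/- mice after 24 weeks and with P7B for the other 12. What the letters stand for is not stated, and letter and group cannot be told apart there.

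At this depth most libraries showed very few V segments. A member segment was counted as used in a library where it had at least 5 counts. In Apoe-/- mice at 24 weeks, libraries 1 to 4 used 1, 2, 4 and 27 segments. In Apoe-/-Mif-/- mice at 24 weeks, the numbers were 0, 4, 2 and 1. At 42 weeks they were 2, 1, 6 and 0 in Apoe-/- mice and 3, 0, 6 and 2 in Apoe-/-Mif-/- mice. Library 4 of the Apoe-/- mice at 24 weeks thus stood apart, and the other 15 libraries used 0 to 6 segments. Over all 346 V rows, library 4 had 33 with at least 5 counts and the other libraries had 0 to 8. Apoe-/-Mif-/- library 1 at 24 weeks, which used 0 members, had 2 such rows.

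**Figure D1:**
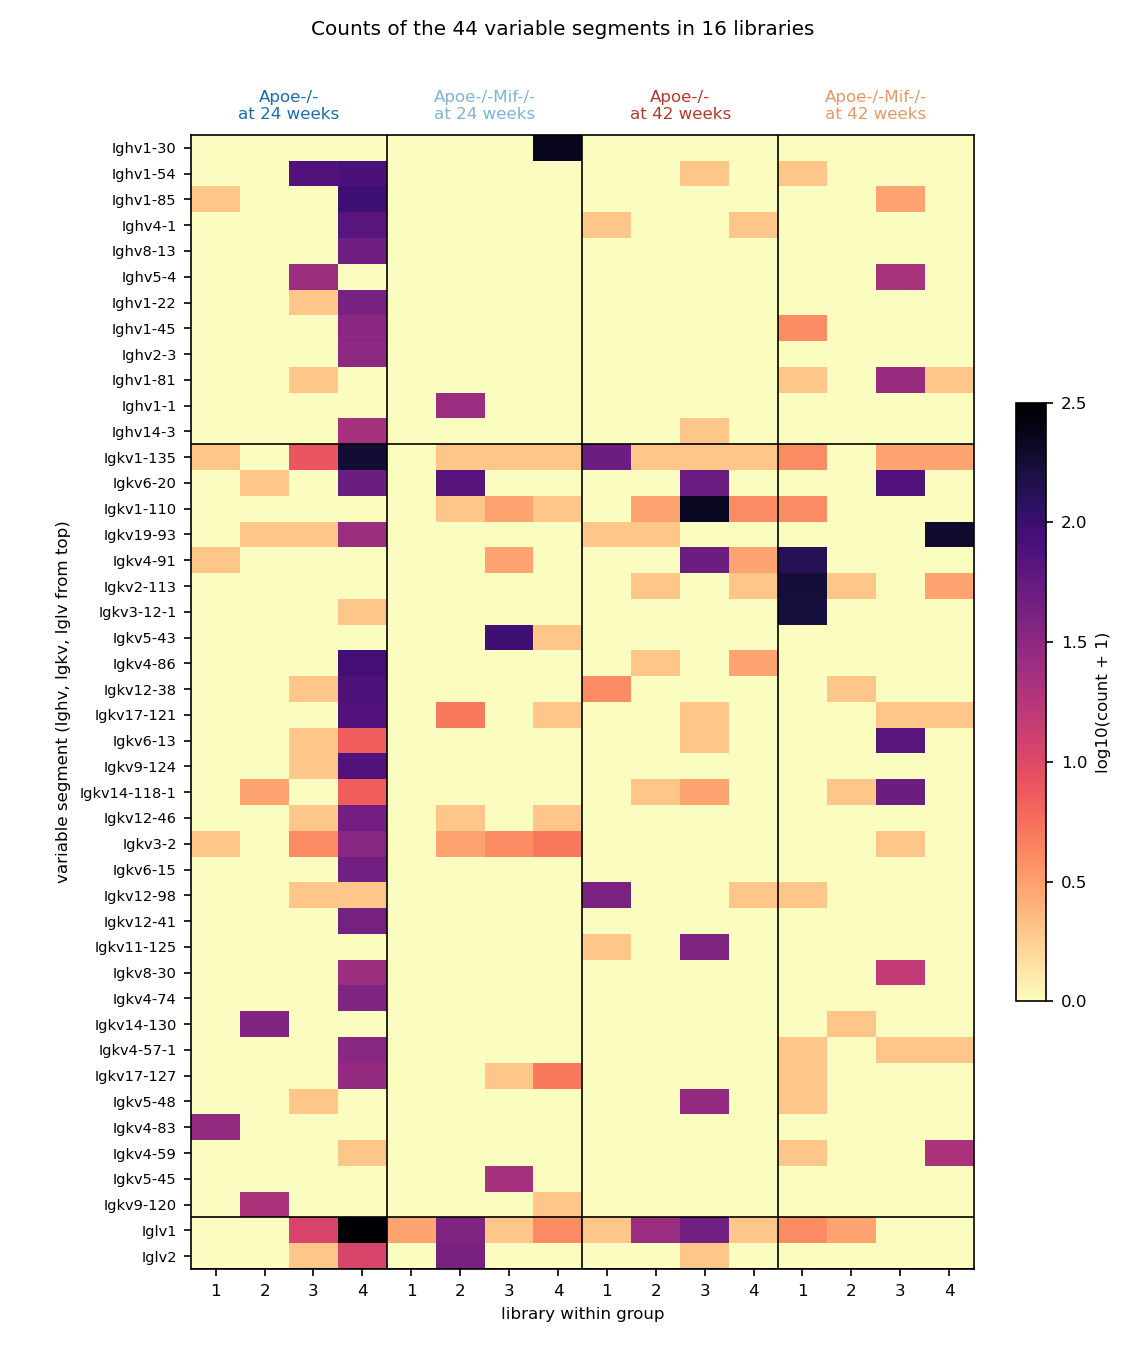
Counts of each of the 44 segments (rows, ordered by locus and summed count) in each of the 16 libraries (columns, by group), as log10(count + 1) in colour. Most rows have 1 dark cell, and library 4 of the Apoe-/- mice at 24 weeks holds 27 segments with at least 5 counts.

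The 44 segments together had 32, 59, 125 and 1576 counts in libraries 1 to 4 of the Apoe-/- mice at 24 weeks, and 2, 179, 122 and 244 in the Apoe-/-Mif-/- mice. At 42 weeks they had 95, 32, 433 and 12 counts in Apoe-/- and 483, 6, 251 and 220 in Apoe-/-Mif-/- libraries. Scaled to depth, V transcripts were at 15.8, 9.80, 13.4 and 441 CPM in Apoe-/- and at 1.29, 36.2, 24.4 and 110 CPM in Apoe-/-Mif-/- libraries at 24 weeks. After 42 weeks the levels were 187, 9.32, 110 and 8.07 CPM in Apoe-/- and 241, 7.98, 58.4 and 92.9 CPM in Apoe-/-Mif-/- libraries. Over the 44 segments, every group held at least 1 library below 10 CPM and 1 above 100 CPM, and the 4 groups overlapped. At 24 weeks the levels below 10 CPM depended on which V rows were summed. Apoe-/-Mif-/- library 1 had 18 counts on all V rows against 2 on the 44 segments, and Apoe-/- library 2 had 74 against 59. The statement on levels below 10 CPM is therefore limited to the 44 segments.

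The share of the most counted segment was read in the 11 libraries with at least 50 member counts. In Apoe-/- mice at 24 weeks, Igkv14-130 held 61.0% of library 2 (36 counts; exact Clopper-Pearson 95% interval 47.4% to 73.5%) and Ighv1-54 held 56.8% of library 3 (71 counts; 47.6% to 65.6%). In library 4 of that group Iglv1 led with 299 counts but held 18.97% (17.1% to 21%), below the interval of every other library read. In Apoe-/-Mif-/- mice at 24 weeks, Igkv6-20 held 37.4% of library 2 (67 counts; 30.3% to 45.0%) and Igkv5-43 held 74.6% of library 3 (91 counts; 65.9% to 82.0%). Ighv1-30 held 93.03% of library 4 (227 counts; 89.1% to 95.9%), the highest share of the 11. These libraries therefore ranged from a nearly single-segment profile to a broad one within the same diet period. The share pools heavy and light chain segments. The library led by Ighv1-30, an annotated pseudogene, had only 17 light chain member counts, so its profile is not that of a whole antibody.

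At 42 weeks, Igkv1-135 held 51.6% of Apoe-/- library 1 (49 counts; 41.1% to 62.0%) and Igkv1-110 held 49.9% of library 3 (216 counts; 45.1% to 54.7%). In Apoe-/-Mif-/- mice, Igkv2-113 held 35.2% of library 1 (170 counts; 30.9% to 39.6%), with Igkv3-12-1 at 165 and Igkv4-91 at 129 counts beside it. Igkv6-20 held 28.3% of library 3 (71 counts; 22.8% to 34.3%), and Igkv19-93 held 88.2% of library 4 (194 counts; 83.2% to 92.1%). The 5 libraries with fewer than 50 member counts had 2 to 32. Among them Igkv4-83 had 28 of 32 counts in Apoe-/- library 1 at 24 weeks, and Iglv1 had 25 of 32 in Apoe-/- library 2 at 42 weeks.

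The leading 3 segments together held 72.8% to 97.7% of member counts in the libraries with at least 50 such counts other than library 4 of the Apoe-/- mice at 24 weeks, where they held 36.4%. The annotated transcripts of the members are of like length, 291 to 425 bases. Dividing by length left the leading segment unchanged in every library except Apoe-/-Mif-/- library 1 at 42 weeks, where Igkv3-12-1 then led with 34.8%.

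**Figure D2:**
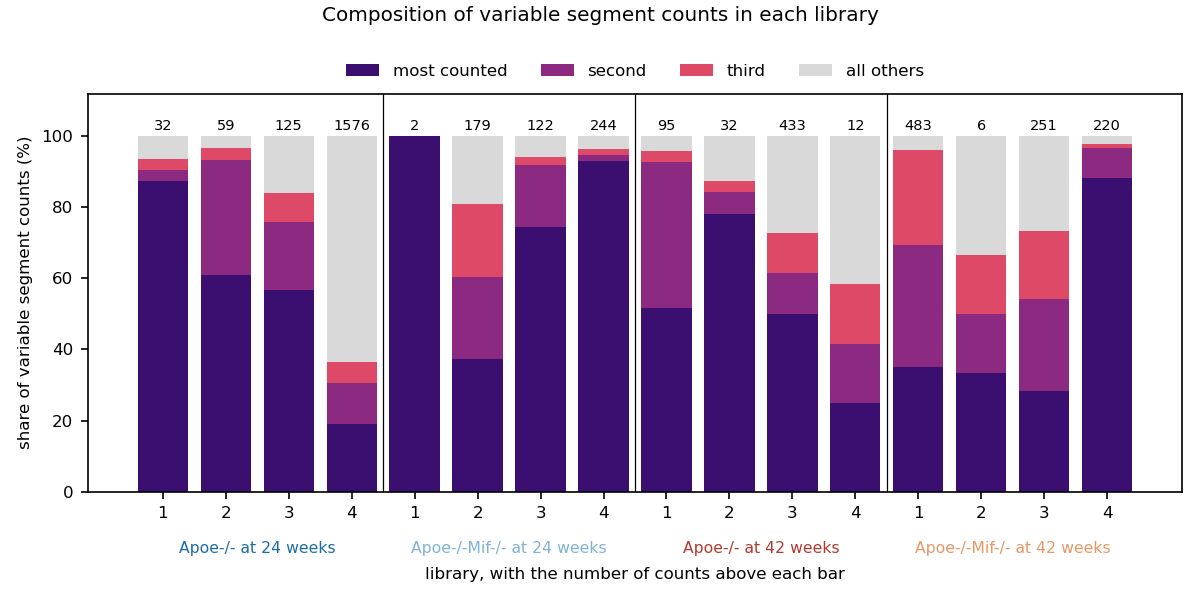
Share of V segment counts (%) on the most counted segment, the next 2 and all others in each of the 16 libraries, with the member counts above each bar. The bar of library 4 of the Apoe-/- mice at 24 weeks has the largest grey part among libraries with at least 50 counts, and bars with 2 to 12 counts carry little information.

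The number of segments also depends on how many counts a library has. The number expected in a random draw of 100 member counts was therefore computed for the 9 libraries with at least 100. It was 23.6 in Apoe-/- library 4 at 24 weeks and 12.99 in library 3, and lay between 4.77 and 8.47 in the other 7. The effective number of segments (the inverse of the summed squared shares) was 13.4 in library 4 and 1.15 to 4.90 in the other 10 libraries read. The breadth of library 4 was thus seen also at equal member counts, but this cannot count as separate support. The members were chosen by summed counts, and library 4 held 1576 of the 3871 member counts. Many members had all or nearly all of their counts there, so the choice of members favours that library. Equal counts of reads without molecular identifiers are also not equal numbers of molecules. A draw over all V rows was not made.

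Used segments were mostly found in 1 library each. Of the 44 segments, 33 were used in exactly 1 library, 8 in 2 libraries, and Igkv1-135, Igkv6-20 and Iglv1 in 3, 4 and 5 libraries. Among all 9717 rows of the table with 20 to 429 summed counts, the range of the members, 39.1% were used in exactly 1 library. For 34 of the 44 segments (77.3%) 1 library held over 80% of all counts, against 24.8% of all 19174 rows with at least 20 counts and 45.1% of the rows with 20 to 429. Library 4 of the Apoe-/- mice at 24 weeks was that library for as many of the 34 as all other libraries together. The median share of the top library was 94.3% for members and 74.7% for the rows of that range. Most genes with as few counts also had uneven counts in these libraries of amplified RNA, which is the base against which the members' share stands.

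**Figure D3:**
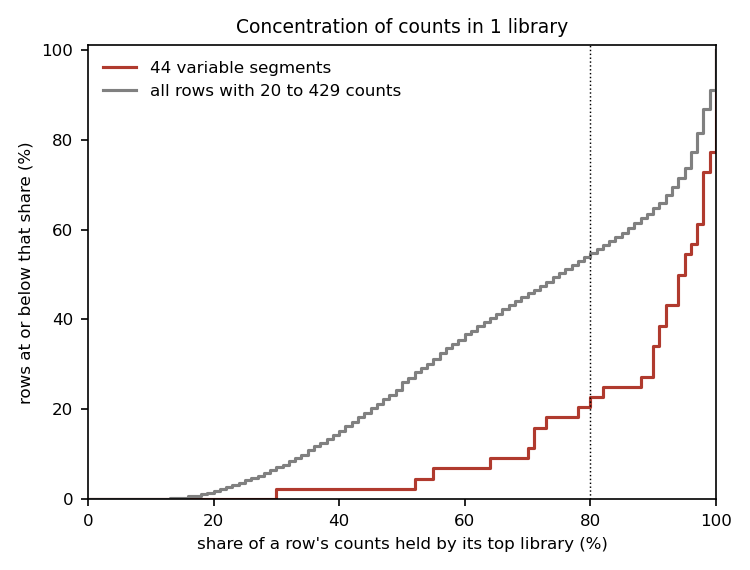
Cumulative share of rows (%, vertical axis) by the share of their counts that their top library held (%, horizontal axis), for the 44 segments (red) and all rows with 20 to 429 counts (grey); the dotted line marks 80%. At 80%, the red curve has reached 22.7% and the grey curve 54.9%.

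Of the 24 pairs of libraries within a group, 2 shared at least 1 used segment, and of the 96 pairs between groups 16 did. Because 3 libraries used 0 segments, 9 pairs within and 33 between groups could share none, which leaves 2 of 15 and 16 of 63. How often pairs of libraries shared other rows with like counts was not measured, so these numbers are a description only. Several of the 16 pairs included library 4 of the Apoe-/- mice at 24 weeks. The pairs within a group were libraries 3 and 4 of the Apoe-/- mice at 24 weeks, which shared Ighv1-54, Igkv1-135 and Iglv1, and libraries 2 and 3 of the Apoe-/- mice at 42 weeks, which shared Iglv1. Taken by group, 31 segments were used by any library of the Apoe-/- mice at 24 weeks, 7 by Apoe-/-Mif-/- mice at 24 weeks, 8 by Apoe-/- mice at 42 weeks and 11 by Apoe-/-Mif-/- mice at 42 weeks. Of the 31, library 4 used 27, and without it the Apoe-/- libraries of that duration used 7.

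Among heavy chain segments, Ighv1-30 had 227 counts in Apoe-/-Mif-/- library 4 at 24 weeks and 0 in the other 15. Ighv1-54 had 71 and 78 counts in libraries 3 and 4 of the Apoe-/- mice at 24 weeks, 1 count in each of 2 libraries at 42 weeks, and 0 elsewhere. Ighv1-85 had 94 counts in Apoe-/- library 4 at 24 weeks and at most 2 in any other library. Ighv1-81 had 26 counts in Apoe-/-Mif-/- library 3 at 42 weeks and at most 1 elsewhere, and Ighv1-1 had 25 counts in Apoe-/-Mif-/- library 2 at 24 weeks and 0 elsewhere. The Ighv1 family, the largest in the table with 92 rows, supplied 7 of the 12 heavy chain members and 605 counts.

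Among kappa segments, Igkv6-20 was used in the most libraries, 4. Igkv6-20 had 49 counts in Apoe-/- library 4 and 67 in Apoe-/-Mif-/- library 2 at 24 weeks, 50 in Apoe-/- library 3 and 71 in Apoe-/-Mif-/- library 3 at 42 weeks. It had 1 count in Apoe-/- library 2 at 24 weeks and 0 in the other 11, so 1 library of each group used it. Igkv1-135 had 181 counts in Apoe-/- library 4 and 7 in library 3 at 24 weeks, and 49 in Apoe-/- library 1 at 42 weeks. Its count was 0 to 3 in the other 13 libraries, which included all 8 without Mif. In CPM the order changed: Igkv1-135 was at 96.5 CPM in Apoe-/- library 1 at 42 weeks, the shallowest library, and at 50.6 CPM in Apoe-/- library 4 at 24 weeks.

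Igkv1-110 had 216 counts in Apoe-/- library 3 at 42 weeks, with 0 to 3 in every other library. Igkv19-93 had 194 counts in Apoe-/-Mif-/- library 4 at 42 weeks and 24 in Apoe-/- library 4 at 24 weeks, and at most 1 elsewhere. Igkv4-91 had 129 counts in Apoe-/-Mif-/- library 1 and 49 in Apoe-/- library 3 at 42 weeks, and at most 2 elsewhere. Igkv2-113 and Igkv3-12-1 had 170 and 165 counts in that same Apoe-/-Mif-/- library 1 and at most 2 in any other. Each of these segments was high in 1 or 2 mice and near 0 in the others of its group.

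The lambda segments were used in several libraries. Iglv1 had 0, 0, 10 and 299 counts in Apoe-/- and 2, 37, 1 and 3 in Apoe-/-Mif-/- libraries at 24 weeks. Its 42-week values were 1, 25, 45 and 1 in Apoe-/- and 3, 2, 0 and 0 in Apoe-/-Mif-/- libraries. Iglv2 had 41 counts in Apoe-/-Mif-/- library 2 and 10 in Apoe-/- library 4 at 24 weeks, and at most 1 elsewhere. The lambda share of light chain member counts was read in the 12 libraries with at least 20 of them. It was 0%, 0%, 39.3% and 26.4% in Apoe-/- libraries 1 to 4, and 50.65% and 0.820% in Apoe-/-Mif-/- libraries 2 and 3, at 24 weeks. At 42 weeks it was 1.06%, 78.1% and 10.7% in Apoe-/- libraries 1 to 3 and 0.628%, 0% and 0% in Apoe-/-Mif-/- libraries 1, 3 and 4. Some of these shares rest on few counts: 39.3% is 11 of 28 and 78.1% is 25 of 32. Low and high shares thus occurred within the same group in all but the Apoe-/-Mif-/- mice at 42 weeks. Iglc1, the constant chain usually joined to Iglv1, had 509 counts in Apoe-/- library 4 at 24 weeks and 59 and 128 in Apoe-/- libraries 2 and 3 at 42 weeks. It also had 47 in Apoe-/- library 1 at 24 weeks, where Iglv1 had 0. Iglc2, the chain usually joined to Iglv2, had 63 counts in Apoe-/-Mif-/- library 2 at 24 weeks.

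The ends of Iglv1 and Iglv2 are shown together because reads of one could be assigned to the other. Capitals mark the bases at which the pair differs.
Iglv1: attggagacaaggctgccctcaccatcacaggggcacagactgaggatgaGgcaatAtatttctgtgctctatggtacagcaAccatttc
Iglv2: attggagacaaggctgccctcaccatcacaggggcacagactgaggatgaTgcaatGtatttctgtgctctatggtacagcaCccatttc
The pair had 97.5% identity over the last 200 bases and 3 differences in the last 90. Of the 44 segments, 27 had no stretch of 100 bases, the read length, in common with another V transcript, and 17 had at least 1. Igkv6-20 shared 55.8% of its 100-base stretches with Igkv6-29, which had 0 counts. Igkv5-43 and Igkv5-45 were identical over the last 90 bases and differed by 1 edit over the last 200, and both were counted in Apoe-/-Mif-/- library 3 at 24 weeks, with 91 and 21 counts. The treatment of reads that align to several segments is not given in the sources used here. The split between these near copies is therefore uncertain, and those 2 segments may stand for 1.

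Igkv17-121 and Igkv17-127 were a further near-identical pair, both most counted in Apoe-/- library 4 at 24 weeks, with 72 and 27 counts. The last 90 bases differed at the capitals.
Igkv17-121: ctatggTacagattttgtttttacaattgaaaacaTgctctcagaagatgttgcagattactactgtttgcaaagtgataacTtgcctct
Igkv17-127: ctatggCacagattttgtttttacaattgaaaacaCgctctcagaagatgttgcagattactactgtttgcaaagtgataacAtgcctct
The pair shared 16.9% of the 100-base stretches of Igkv17-121 and had 3 differences in the last 90 bases.

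Of the 44 members, 7 are annotated as pseudogenes in GENCODE M21: Ighv1-1, Ighv1-30, Ighv1-45, Igkv14-118-1, Igkv2-113, Igkv3-12-1 and Igkv4-83. They held 715 counts, 18.5% of the member counts. By row, 37 of 216 V genes were members (17.1%) and 7 of 129 pseudogenes (5.43%). Pseudogenes led in 3 libraries: Igkv4-83 in Apoe-/- library 1 at 24 weeks, Ighv1-30 in Apoe-/-Mif-/- library 4 at 24 weeks and Igkv2-113 in Apoe-/-Mif-/- library 1 at 42 weeks. In that last library pseudogenes had 338 of 483 member counts.

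Transcripts of Igkc and Ighm were counted in every library. Igkc, the kappa constant chain, had 32, 126, 203 and 5270 counts in Apoe-/- and 81, 468, 722 and 122 in Apoe-/-Mif-/- libraries at 24 weeks. After 42 weeks of diet Igkc had 209, 31, 1534 and 50 counts in Apoe-/- and 1075, 36, 1760 and 1138 in Apoe-/-Mif-/- libraries. For every 100 Igkc counts, the libraries had between 6.17 and 100 counts on any Igkv row. Apoe-/- library 4 at 24 weeks had 17.7, so its high V counts came with high constant counts. For every 100 counts of heavy constant chains, there were 0 to 16.7 Ighv counts in 15 libraries. In Apoe-/-Mif-/- library 4 at 24 weeks, where Ighv1-30 led, there were 123, with 187 heavy constant and 230 Ighv counts.

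**Figure D4:**
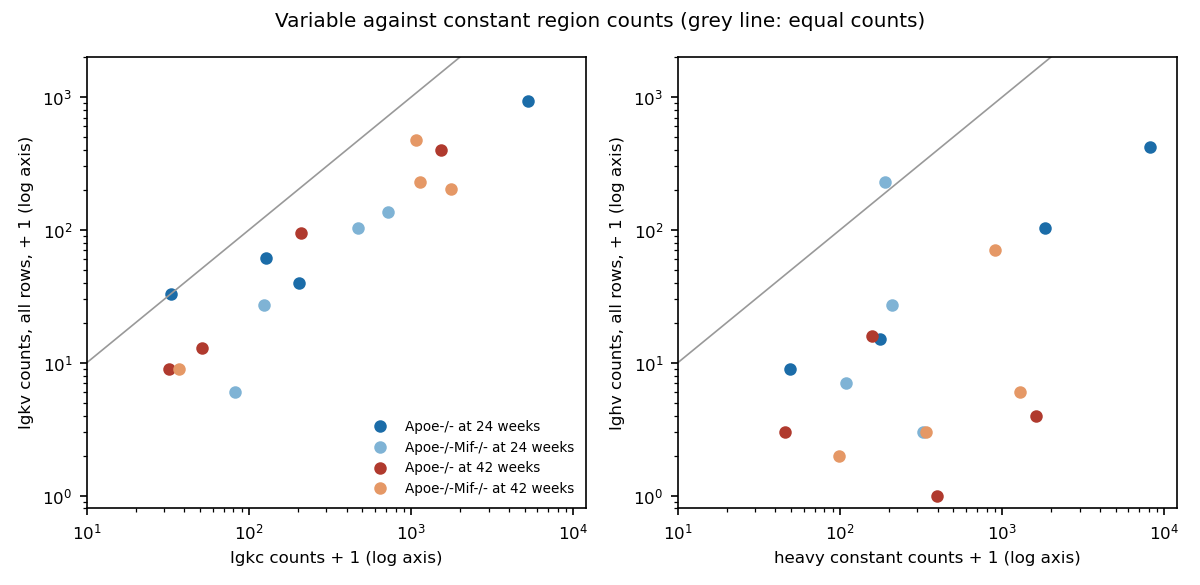
Counts on all Igkv rows against Igkc (left) and on all Ighv rows against the heavy constant chains (right), each plus 1 on log axes, 1 point per library coloured by group; the grey line marks equal counts. Above the line at right is Apoe-/-Mif-/- library 4 at 24 weeks, with 230 Ighv counts.

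Among heavy constant chains, Ighm, the chain of IgM, had the most counts, 12108 over all libraries. Class-switched chains (Ighg1, Ighg2b, Ighg2c, Ighg3, Igha) made up 16.7%, 2.29%, 0.546% and 30.7% of heavy constant counts in Apoe-/- libraries 1 to 4 at 24 weeks, and 74.1%, 36.8%, 32.5% and 45.99% in Apoe-/-Mif-/- libraries. After 42 weeks their share was 1.27%, 1.78%, 0.925% and 13.3% in Apoe-/- and 0.464%, 10.2%, 78.6% and 1.47% in Apoe-/-Mif-/- libraries. The heavy constant counts behind these shares were 45 to 8179. The share was over 30% in 6 libraries, the 4 of Apoe-/-Mif-/- mice at 24 weeks (whose column names start with P7C) among them. That limit was chosen after the values were seen, and no test was run on the share. In Apoe-/-Mif-/- library 3 at 42 weeks Igha, the chain of IgA, had 556 counts. Apoe-/-Mif-/- library 1 at 42 weeks, led by Igkv2-113, Igkv3-12-1 and Igkv4-91, had 1288 Ighm counts. Ighe, the chain of IgE, was at 0 in all 16 libraries.

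Neither Mif genotype nor time on diet was associated with a difference in V transcripts, segments used or top share that passed a permutation test. Most of these comparisons could not pass alone after adjustment. At 24 weeks the mean level of V transcripts was 120 ± 214 CPM (SD, n = 4) with Mif and 43.0 ± 47.1 CPM without it, and at 42 weeks 78.8 ± 86.7 and 100.2 ± 100 CPM. The segments used averaged 8.5 ± 12.4 and 1.75 ± 1.71 at 24 weeks, and 2.25 ± 2.63 and 2.75 ± 2.5 at 42 weeks. The share of the top segment averaged 45.6% ± 23.2 (n = 3) and 68.3% ± 28.3 (n = 3) at 24 weeks, and 50.73% ± 1.198 (n = 2) and 50.6% ± 32.8 (n = 3) at 42 weeks. The SD of V transcripts was larger than the mean in all 4 groups.

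Each measure was compared for Mif deletion at each duration and averaged over both, and for 42 against 24 weeks in each genotype and averaged over both, by two-sided exact permutation tests. These are 18 tests, which share libraries, and all 18 Benjamini-Hochberg adjusted p-values were 1.0. For Mif deletion at 24 weeks, V transcripts differed by -0.56 on the scale of log2(CPM + 1) (exact permutation p = 0.771), segments used by -6.75 (p = 0.429) and the top share by 22.8 percentage points (p = 0.4). At 42 weeks the same differences were 0.66 (exact permutation p = 0.771), 0.5 segments (p = 0.886) and -0.177 points (p = 1.0). The smallest p that 4 against 4 libraries allow is 0.0286. For the top share it is 0.1 or 0.2 in the comparisons of 2 groups, so these could not pass. After adjustment over the 18 tests, a comparison of 4 against 4 libraries could not fall under 0.05 alone. The same holds for the averaged top share, where the smallest p is 0.01.

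For 42 against 24 weeks, V transcripts differed by 0.19 in Apoe-/- (exact permutation p = 1.0) and by 1.41 in Apoe-/-Mif-/- mice (p = 0.429). Segments used differed by -6.25 in Apoe-/- (exact permutation p = 0.571) and by 1.0 in Apoe-/-Mif-/- mice (p = 0.657). The top share differed by 5.14 percentage points in Apoe-/- (exact permutation p = 1.0) and by -17.8 in Apoe-/-Mif-/- mice (p = 0.5). Averaged over durations, Mif deletion gave differences of 0.05 in V transcripts (exact permutation p = 0.962), -3.125 in segments used (p = 0.552) and 11.3 points in the top share (p = 0.49). Averaged over genotypes, 42 against 24 weeks gave 0.80 (exact permutation p = 0.479), -2.625 (p = 0.715) and -6.33 points (p = 0.56).

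The largest differences in segments used rested on library 4 of the Apoe-/- mice at 24 weeks. Without it, the difference in segments used was -0.583 for Mif deletion at 24 weeks (exact permutation p = 0.857) and -0.0833 for duration in Apoe-/- mice (p = 1.0). Without it, V transcripts differed by 0.69 for Mif deletion at 24 weeks and by 1.44 for duration in Apoe-/- mice, and the top share by 9.44 and -8.18 percentage points. The averaged differences in segments used became -0.0417 for Mif deletion and 0.458 for duration. Averaged V transcripts became 0.67 and 1.43 and averaged top shares 4.63 and -12.99 points.

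**Figure D5:**
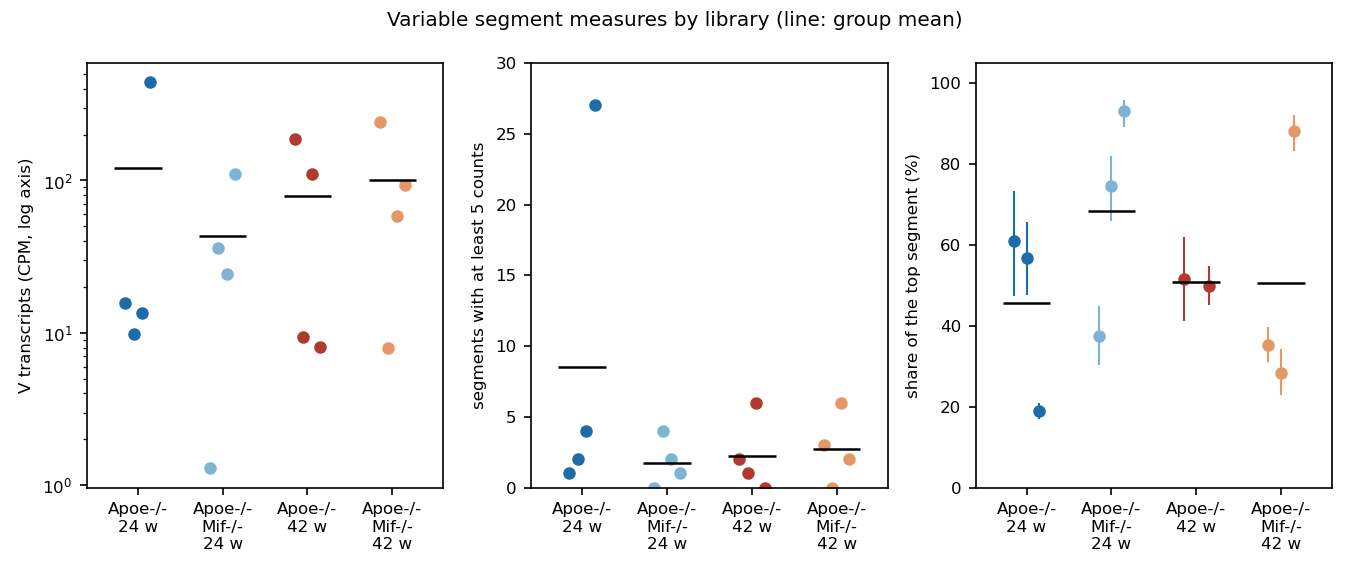
V transcripts (CPM, log axis), segments with at least 5 counts, and share of the top segment (%, with exact 95% binomial intervals as bars, in the 11 libraries with at least 50 member counts), 1 point per library and group means of the plotted values as lines. The groups overlap in each panel, and the highest points of the first panels, 441 CPM and 27 segments, are library 4 of the Apoe-/- mice at 24 weeks.

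Segment by segment, the low-count filter of the edgeR fit over all genes left Iglv1 and Igkv6-20, 2 of the 44, and neither was called in any comparison. By edgeR's quasi-likelihood test, Iglv1 had a log2 fold change of -3.13 (SE 1.95, adjusted p = 0.83) for Mif deletion at 24 weeks and of -2.54 (SE 2.01, adjusted p = 0.522) at 42 weeks. Igkv6-20 had log2 fold changes of -0.14 (SE 2.06, edgeR adjusted p = 0.996) and 0.35 (SE 2.07, adjusted p = 0.951). For 42 against 24 weeks in edgeR, Iglv1 differed by -2.06 (SE 1.87, adjusted p = 0.698) in Apoe-/- and by -1.47 (SE 1.95, adjusted p = 0.788) in Apoe-/-Mif-/- mice, and Igkv6-20 by -0.16 (SE 2.08, adjusted p = 0.987) and 0.33 (SE 2.06, adjusted p = 0.964). In the interaction of genotype and duration, edgeR gave Iglv1 0.60 (SE 2.87, adjusted p = 0.957) and Igkv6-20 0.49 (SE 2.92, adjusted p = 0.965). None of the 10 values had an unadjusted p under 0.05.

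Over all 10634 genes tested by edgeR, few were called, so the members' count of 0 is close to the background. The shares called were 0.047% for Mif deletion at 24 weeks, 0.0% at 42 weeks, 0.0% for duration in Apoe-/- mice, 0.122% for duration in Apoe-/-Mif-/- mice and 0.686% for the interaction. With no filter edgeR tested all 44 segments among 27623 genes and called 0 segments, while the shares of genes called were 0.424%, 0.543%, 0.0652%, 1.52% and 1.54% in the same order. At an unadjusted p under 0.05 it had 24, 8, 18, 12 and 13 of the 44 segments. Of the 27623 genes it had 4713, 3951, 4169, 3905 and 4042 (17.1%, 14.3%, 15.1%, 14.1% and 14.6%). The genes needed only 1 count, while the members were chosen by summed counts that mostly came from 1 library each. The 2 sets are therefore not alike, and the difference supports nothing about the segments. DESeq2 called 1 member, Igkv1-110, for 42 against 24 weeks in Apoe-/- mice (log2 fold change 8.36, DESeq2 adjusted p = 0.0267). DESeq2 called 3.25% of the 10419 genes tested in that comparison. That value rests on library 3, with 216 counts, while the other Apoe-/- libraries at 42 weeks had 0, 2 and 3 and all 4 at 24 weeks had 0.

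Genes of the B lineage were examined as lists of cell type markers. For the immunoglobulin constant chains, B cells, plasma cells, germinal centre and V(D)J recombination lists, edgeR tested 5 of 13, 4 of 15, 8 of 15, 3 of 9 and 5 of 10 members, and 0 passed in either direction in any of the 5 comparisons. Their smallest adjusted p over these comparisons was 0.199, for a germinal centre gene in Mif deletion at 42 weeks. None of the 4 surrogate light chain genes passed the filter. Ms4a1, which encodes the B cell surface protein CD20, had 1 count over all libraries, and Cr2, which encodes a complement receptor of B cells, had 0.

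Several lineage genes were, like the V segments, uneven between libraries. In the B cell list, Ly6d, a surface antigen of early B cells, had 2171 of 2798 counts in library 4 and Cd22, a B cell lectin, 1025 of 2287 in Apoe-/- library 3 at 24 weeks. Cd79b, a chain of the B cell receptor, had 223 of 474 in Apoe-/-Mif-/- library 4 at 42 weeks. Of the plasma cell list, Sdc1 (the surface marker CD138) and Xbp1 (a transcription factor of secretory cells) were counted in all 16 libraries, at 230 to 3922 and 31 to 4940 counts. Neither is confined to plasma cells in tissue.

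Markers of vessel cells, macrophages and adipocytes were also read. All genes of the macrophage, smooth muscle, endothelium and adipocyte lists had counts in at least 1 library, which is a weak check of the labelled tissue. The summed level over the libraries was 1840 to 36460 CPM for the 10 macrophage genes, 845.9 to 16540 for the 8 smooth muscle genes, 89.4 to 4646 for the 6 endothelial genes and 88.8 to 24280 for the 7 adipocyte genes. The balance differed between libraries. In Apoe-/- library 1 at 24 weeks the adipocyte genes were at 19220 CPM and the smooth muscle genes at 845.9 CPM. In library 2 of that group the order was reversed, at 88.84 and 11330 CPM. No macrophage or smooth muscle gene passed in any of the 5 edgeR comparisons. Of 6 adipocyte genes tested, edgeR called 1 lower for Mif deletion at 24 weeks (Plin1, which coats lipid droplets, log2 fold change -9.39, adjusted p = 0.0466) and 2 higher at 42 than at 24 weeks in Apoe-/-Mif-/- mice (Plin1 and Car3). In the interaction, edgeR called Plin1 and Ucp1, the endothelial receptor gene Kdr and the T cell receptor chain Trbc1 higher. Of these genes, Plin1 and Car3 thus passed in a comparison of 2 groups, while Ucp1, Kdr and Trbc1 passed only in the interaction. With its filter, edgeR tested only 2 of the 44 V segments. The part of these genes in the V values was not tested.

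Library 4 of the Apoe-/- mice at 24 weeks, which used 27 segments, also had other lymphoid transcripts. Rag1, a subunit of the recombinase, had 752 of its 803 counts there, and Dntt, the terminal transferase that adds bases at joints, 582 of 638. Other genes of the V(D)J recombination list were spread differently: Dclre1c, the nuclease Artemis, had 1 of 953 counts there and 464 in library 1, and Xrcc6, a subunit of the Ku end-binding complex, 375 of 1645. The summed level of that list was 598.1 CPM there and 474.4 CPM in Apoe-/- library 1 at 24 weeks. The summed level of the B cell list, 847.9 CPM, was above the 11.2 to 199.6 CPM of the other 15 libraries. That of the 14 T cell and thymocyte genes was 5840 CPM, against 6.64 to 1498 CPM. T cell receptor V rows had 589 counts and 12 used segments there, against 0 to 294 counts and 0 to 2 used segments elsewhere. Of the 16 T cell receptor V rows with at least 20 counts, 15 had over 80% of them in 1 library. The part of these transcripts in the V segment values was not tested, and the values without this library are given above.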

How the data were processed

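RNA of brachiocephalic artery sections was measured in 16 libraries, 4 per group, each from a separate mouse named in the labels. The submitters' processing notes name cutadapt 1.18, Trim Galore 0.6.4, FastQC 0.11.5, the aligner STAR 2.5.2b and the build GRCm39. The counting program, its annotation, its use of strand and its treatment of reads with several matches are not given in the sources used here. The deposited table holds raw counts per gene symbol in 55359 rows. A row with a blank name (at most 0.00257% of a library) and 2 reporter rows were left out, and 0 columns could not be matched to a sample. A second deposited table holds the authors' variance-stabilised log2 values for 9578 genes and was used only as an alternative.

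The V segments, the marker lists and the tests were chosen with earlier results of these data known. CPM used library totals and TMM factors. Library measures were compared by two-sided exact permutation tests (scipy 1.17.1). Genes were tested with edgeR 4.0.16 (quasi-likelihood, filterByExpr with a minimum count of 10 and total of 15, Benjamini-Hochberg over all tested genes, called under 0.05), with DESeq2 1.42.0 and limma 3.58.1 as alternatives, in R 4.3.3. The scripts were tested on simulated data. Segments are named when among the 12 with the largest summed counts, the most counted of a library or (with at least 20 counts) of a locus in a library, called, or next to the threshold of 20. List genes are named when called or among the 4 most counted. Others named were chosen after their values were seen. Library totals of 378066 to 8649518 set the precision. The reference used for sequences was GRCm38, not the authors' build, so no coordinates are given.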

Additional observations from a re-analysis of the deposited data

Results flagged for a closer look

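In groups of 4 libraries, 26 of 34 values examined had a lowest or highest library far from the others, by the gap to the nearest library divided by the range of the group. Chance flags about 1 in 20 groups when values are normally distributed, which sparse counts are not. Of the 26, 24 are levels of single segments that were named for being the most counted in a library, in a locus or by summed counts, so this share describes that choice and supports nothing. In the Apoe-/- mice at 24 weeks, library 4 had such a gap for V transcripts (0.99) and for the number of segments used (0.88). It had one also for Iglv1, Igkv1-135 and Igkv6-20 (0.99 each), Ighv1-85 and Igkv19-93 (0.98 each) and Iglv2 (0.96). In the same group Igkv14-130 stood apart in library 2 and Igkv4-83 in library 1 (1.0 each).

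In the Apoe-/-Mif-/- mice at 24 weeks, library 2 stood apart for Ighv1-1, Igkv6-20 and Iglv2 (1.0 each) and Iglv1 (0.84), library 3 for Igkv5-43 (0.98) and library 4 for Ighv1-30 (1.0). In the Apoe-/- mice at 42 weeks, library 3 stood apart for Igkv6-20 (1.0), Igkv1-110 (0.96) and Igkv4-91 (0.89), and library 1 for Igkv1-135 (1.0). In the Apoe-/-Mif-/- mice at 42 weeks, library 1 stood apart for Igkv3-12-1 and Igkv4-91 (1.0 each) and Igkv2-113 (0.98), library 3 for Igkv6-20 (1.0) and Ighv1-81 (0.92), and library 4 for Igkv19-93 (1.0).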

How the results depend on the processing

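Of 294 recomputed differences in V transcripts, segments used or top share, 44 changed sign and 250 did not. In 123 the smallest possible exact permutation p was 0.05 or more, so they could not pass, and in the other 171 the lowest was 0.1624. Of 82 recomputed counts of called segments, 81 stayed at 0 and 1 moved. For Mif deletion at 24 weeks, V transcripts differed by 0.32 with a summed minimum of 100 counts. For Mif deletion at 42 weeks, the top share differed by 2.09 points over every V row, 0.671 in libraries with 200 member counts and 20.1 without the 7 pseudogenes. Segments used there differed by -0.25 with a summed minimum of 100, -0.25 without pseudogenes and -1.23 in 100 member counts. Averaged over durations, Mif deletion gave V transcripts -0.13 with counts below 1% of a row's highest count zeroed, -0.10 with CPM from library totals alone and -0.41 without pseudogenes, and a top share of -0.595 for light chain rows alone. For duration, V transcripts in Apoe-/- mice differed by -0.01 (-0.0139) with CPM from library totals, segments used in Apoe-/-Mif-/- mice by -0.384 in 100 member counts, and their top share by 11.9 without pseudogenes. The top share averaged over genotypes differed by 5.42 with a summed minimum of 100, 0.479 for light chain rows alone, 1.19 as minus the effective number and 8.16 without pseudogenes. Leaving out pseudogenes was chosen after seeing the data. DESeq2 called 1 segment for duration in Apoe-/- mice, and the other alternatives called 0.

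Leaving out 1 library at a time moved V transcripts for Mif deletion between -1.34 and 0.69 at 24 weeks, between -0.02 (-0.0246) and 1.56 at 42 weeks and between -0.34 and 0.67 averaged, and for duration between -0.58 and 1.44 in Apoe-/-, 0.32 (without Apoe-/-Mif-/- library 1 at 24 weeks) and 2.32 (without library 2 at 42 weeks) in Apoe-/-Mif-/- mice and 0.26 and 1.43 averaged. Segments used moved between -9.25 and -0.583 for Mif deletion at 24 weeks, -0.583 and 1.75 at 42 weeks and -4.375 and -0.0417 averaged, between -8.75 and -0.0833 for duration in Apoe-/- mice, between -0.0833 and 1.92 for duration in Apoe-/-Mif-/- mice and between -3.88 and 0.458 for duration averaged. The top share moved between 9.44 (without Apoe-/- library 4) and 38.2 (without Apoe-/-Mif-/- library 2) for Mif deletion at 24 weeks, -18.99 and 10.96 at 42 weeks and 1.88 and 19.02 averaged. For duration it moved between -8.18 and 12.8 in Apoe-/- mice, -36.6 and -5.46 in Apoe-/-Mif-/- mice (without library 4 at 42 and at 24 weeks) and -15.7 and -0.160 averaged. The cause of these changes was not tested. No paired analysis was possible because each library is a separate mouse and the numbers only follow accession order. With 2 to 32 member counts, 5 libraries could not show more than the most abundant segments. Over all genes, DESeq2 called 267, 717, 339, 561 and 498 against 5, 0, 0, 13 and 73 by edgeR.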
